A study of Homo sapiens with 12 samples.

Results

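The genes of the mitochondrial ribosomal proteins were described in RNA sequencing counts from a pair of ovarian cancer lines, each with and without paeonol (PAE), a phenolic compound of the tree peony. The family was taken as every protein-coding gene whose symbol begins with MRPL or MRPS followed by a number, which gave 78 of the 46350 named genes in the files. Of these, 49 carry the MRPL prefix of the large subunit and 29 the MRPS prefix of the small subunit. By the labels SKOV3 is sensitive to cisplatin and comes from a human epithelial ovarian cancer. SKOV3/DDP is labelled resistant, and the methods describe it as developed from SKOV3. The 4 groups were untreated SKOV3, SKOV3 with PAE, untreated SKOV3/DDP and SKOV3/DDP with PAE, with 3 libraries in each and 12 in all. The labels give neither the dose nor the time of PAE, no vehicle and no batch, and the design text calls the libraries biological triplicates without saying how the cultures were kept apart, so the p-values measure only the spread between these libraries. Since 1 resistant line was set against 1 sensitive line, what goes with resistance cannot be told apart from other differences between the lines.

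Mitochondrial ribosomes translate the few proteins that the mitochondrial genome encodes, all of them subunits of the oxidative phosphorylation complexes. Their proteins are encoded in the nucleus, made in the cytosol and imported, and are assembled in the matrix on rRNAs that come from mitochondrial DNA. The small subunit binds the messenger RNA and decodes it, and the large subunit holds the peptidyl transferase centre, the stalk that recruits translation factors, the central protuberance that contacts the small subunit, and the exit tunnel that leads the peptide to the inner membrane.

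Nuclear genes of mitochondrial proteins often have promoters bound by ETS family factors such as GABPA, also called NRF2 in this setting, and by NRF1, so the bases upstream of the members were searched on both strands for CCGGAAG, an ETS core, and an NRF1 core, the letters GCGC and TGCGC with any 1 base between them. RefSeq promoter sequences on GRCh38.p14 were available for 70 of the 78 members, and the search took the 250 bases before the annotated start. The ETS letters stood in 23 members (32.9%), against 12% of the promoters of 15509 protein-coding genes, and the NRF1 letters in 8 members (11.4%), against 7.76%. One or both stood in 30 members (42.9%), against 18.4%. AAGATGG, a YY1 core, was in 7 members (10%, against 3.33%). GGGCGG, the GC box of SP1, was in 39 (55.7%, against 56.6%), CCAAT in 19 (27.1%, against 34.7%) and TATAAA in 3 (4.29%, against 9.18%). CCGGAAG ends in the letters with which AAGATGG begins, so a single stretch can hold both. A match describes the sequence and says nothing of binding in these cells. The 150 bases before the start are shown for 6 members on which the comparisons turned, all from RefSeq on GRCh38.p14 and written from 5′ to 3′ on the gene's strand, with matches to the ETS or NRF1 letters on either strand in capitals. The coordinates are those of RefSeq's start, which for MRPS31 lies slightly inside the gene as the files place it. They are those of MRPL12 (chr17:81703217-81703366, plus strand), MRPL27 (chr17:50373185-50373334, minus strand), MRPS30 (chr5:44808797-44808946, plus strand), MRPS31 (chr13:40771191-40771340, minus strand), MRPS22 (chr3:139343844-139343993, plus strand) and MRPS23 (chr17:57850045-57850194, minus strand).
MRPL12: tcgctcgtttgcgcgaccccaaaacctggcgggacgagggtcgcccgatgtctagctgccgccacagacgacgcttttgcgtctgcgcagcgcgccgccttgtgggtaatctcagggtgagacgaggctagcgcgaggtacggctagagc
MRPL27: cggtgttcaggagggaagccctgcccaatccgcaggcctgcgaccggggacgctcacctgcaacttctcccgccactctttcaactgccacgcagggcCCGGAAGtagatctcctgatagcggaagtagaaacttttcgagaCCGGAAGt
MRPS30: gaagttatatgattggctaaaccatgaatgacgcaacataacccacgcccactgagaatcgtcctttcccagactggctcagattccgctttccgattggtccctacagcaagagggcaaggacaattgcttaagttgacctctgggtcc
MRPS31: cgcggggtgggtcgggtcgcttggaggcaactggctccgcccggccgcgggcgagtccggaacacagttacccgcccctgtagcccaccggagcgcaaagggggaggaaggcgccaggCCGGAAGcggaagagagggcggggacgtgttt
MRPS22: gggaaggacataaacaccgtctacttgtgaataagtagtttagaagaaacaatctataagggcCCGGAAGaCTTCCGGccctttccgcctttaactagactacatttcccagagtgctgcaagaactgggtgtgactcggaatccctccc
MRPS23: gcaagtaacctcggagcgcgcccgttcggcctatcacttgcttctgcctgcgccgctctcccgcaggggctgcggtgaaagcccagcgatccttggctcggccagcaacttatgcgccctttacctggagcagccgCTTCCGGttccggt
MRPL12, the member that fell most in SKOV3/DDP with PAE, has no such letters in the stretch shown, nor has MRPS30, the member that rose there. MRPL27 holds the ETS letters at 2 places. MRPS22, which rose with PAE in SKOV3, has them once on each strand, and MRPS23, which fell, has them on the opposite strand close to the start. Over all members, 10 of 24 promoters of those that fell with PAE in SKOV3 held the ETS letters. So did 2 of 4 of those that rose and 11 of 41 of those not called. With PAE in SKOV3/DDP it was 3 of 6, 0 of 1 and 20 of 62 in that order. A link between the letters and the changes was not tested.

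Library totals lay between 14610008 and 18263479 counts, and 17951 to 18240 genes had a count in untreated SKOV3 against 21469 to 23194 in the other libraries. Levels are given as CPM, the share of a library's counts in parts per 1000000 after the library size was scaled by its TMM factor. Of the intestinal markers CDH17, CDX2, VIL1, CDX1 and LGR5, all 5 were at 0 in every untreated SKOV3 library, while untreated SKOV3/DDP had mean CPM of 339, 163, 11, 6.61 and 5.27. The ovarian epithelial markers went both ways between the untreated lines. EPCAM had means of 1.27 CPM in SKOV3 and 289 in SKOV3/DDP, KRT8 3311 and 5279, KRT18 1498 and 4190, and KRT19 7.66 and 1349. PAX8 had 29.7 and 4.13 in the same order, and ERBB2 306.5 and 96.5. Markers of leukocytes (PTPRC, CD3E and LYZ) were below 1 CPM in every library. Of 5 fibroblast and endothelial markers, COL1A2 and CDH5 were at 0 throughout, while COL1A1, PDGFRB and PECAM1 were present, and the list summed to 18.4 to 20.6 CPM in untreated SKOV3, 9.89 to 20.2 with PAE, 5.65 to 5.94 in SKOV3/DDP and 0.605 to 1.60 in SKOV3/DDP with PAE. The lines thus differed in lineage markers as well as in the label of cisplatin response, and the part of this in the results between the lines was not tested.

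The untreated SKOV3 libraries also differed from the other 9 in a trend on GC content. The smooth trend of each library's log2 deviations was between -2.51 and -2.08 in the lowest GC decile and between 1.88 and 1.92 in the highest, whereas the other libraries had 0.57 to 1.00 and -1.06 to -0.37. Over all genes tested, the Spearman correlation of the log2 fold change with PAE in SKOV3 and GC content was -0.797, a description across genes that share the same 6 libraries. The members span 35.0% to 72.0% GC in their transcripts, with a median of 49.0% over the 77 tested, 50.8% in MRPL and 48.6% in MRPS genes. Each comparison is therefore given from 2 fits of edgeR's quasi-likelihood test, 1 without correction over 17133 genes and 1 over 15682 genes after each library's trend on GC content and on gene length had been taken out. A member is said to have risen or fallen only when its Benjamini-Hochberg adjusted p was under 0.05 in both fits with the same sign. What makes the GC trend was not tested, and a change in RNA that followed GC content would be removed with it.

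Per kilobase of exon, the middle of the family lay between 11.1 and 47.2 CPM per kb over the 12 libraries, with a median of 32.6. The median was 38.2 in MRPL and 21.9 in MRPS genes. MRPL41, MRPS34 and MRPL4 had the highest levels, at 375, 231 and 173 CPM per kb. These uncorrected means rest largely on the 3 untreated SKOV3 libraries, and over the other 9, a choice made after the data had been seen, they were 129, 46.1 and 35.3. MRPL41 remained the highest there, followed by MRPS15 at 63.8 and MRPL18 at 58.5, and the medians were 23.2 in MRPL and 14.9 in MRPS genes. By the longest transcript in place of all exons, and over all 12 libraries, the 3 had 173, 227 and 258, so their order depends on the length used. The lowest were MRPS18B, MRPS24 and MRPL23, at 0, 0.921 and 1.40 CPM per kb.

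MRPS18B (chr6:30617320-30626393, plus strand on GRCh38) had no count in any of the 12 libraries. It lies in the major histocompatibility complex region, and 24 of the 31 other protein-coding genes within 500 kb (77.4%) had a mean under 0.1 CPM, against 299 of 995 (30.1%) on the rest of chromosome 6. Whether reads were lost there in alignment or counting was not tested, so its level is unknown. MRPS24 had 25, 29 and 21 counts in untreated SKOV3, 6, 11 and 0 with PAE, and none in any SKOV3/DDP library. By shares of raw counts, against a floor of 3 counts over the group, it was at least 22.2-fold lower in SKOV3/DDP than in SKOV3 when neither was treated. With PAE in both it was at least 6.18-fold lower. These bounds make no allowance for the GC trend of untreated SKOV3. The floor covers only the groups without counts, and the few counts of the SKOV3 groups were taken as they are. It lies inside the readthrough gene URGCP-MRPS24, which can take its reads but had a mean of only 0.0071 CPM. MRPS12, a small-subunit protein at the decoding centre, ranged from 3 to 425 counts and from 37 to 425 within untreated SKOV3 alone, and passed the test in no comparison.

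Summed over the MRPL genes, the levels in untreated SKOV3 were 7723, 9693 and 7654 CPM, a mean of 8357 ± 1160 (SD, n = 3). The sum was 2049 ± 135 in SKOV3 with PAE, 1947 ± 73.6 in SKOV3/DDP and 1830 ± 158 in SKOV3/DDP with PAE (SD, n = 3 each). All 3 untreated SKOV3 libraries were above every other library, which lay between 1663 and 2176. The MRPS genes summed to 2633, 3219 and 2685 CPM in untreated SKOV3 and to between 962 and 1252 in the other 9. As a share of raw counts, the whole family took 0.676% to 0.831% in untreated SKOV3 and 0.290% to 0.422% elsewhere. The place of untreated SKOV3 above the other 9 libraries in the family total thus did not depend on TMM scaling. Members at or above the median GC content summed to 8456 to 10670 CPM in untreated SKOV3 and 1123 to 1726 elsewhere. Those below it overlapped, at 1442 to 2242 and 1456 to 1812 CPM. As raw shares the latter were lower in untreated SKOV3, at 0.0941% to 0.144% against 0.162% to 0.223%.

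Removing the GC trend lowered the MRPL sum of untreated SKOV3 to 4058 ± 687 CPM, beside 2339 ± 256, 2170 ± 125 and 2168 ± 25.1 in the other groups in the same order. For MRPS genes the values were 2418 ± 554 in untreated SKOV3 and 1099 ± 131, 1050 ± 28.2 and 1015 ± 23.7 in the others (SD, n = 3). With the trend removed, members below the median GC content summed to 2207 to 4176 CPM in untreated SKOV3 and 1132 to 1389 elsewhere. Those at or above it summed to 3110 to 3653 and 1726 to 2558. For the members below the median, untreated SKOV3 thus stood apart upward only after the correction, since their sums overlapped without it. The ratio of the MRPL to the MRPS sum was 2.93 ± 0.08 (SD, n = 3) in untreated SKOV3 against 1.70 to 1.87 in the other libraries, but 1.70 ± 0.12 against 1.99 to 2.22 after the trend was removed. The order of the groups in the balance of the subunits therefore turned with the correction, and no direction is given for it.

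**Figure D1:**
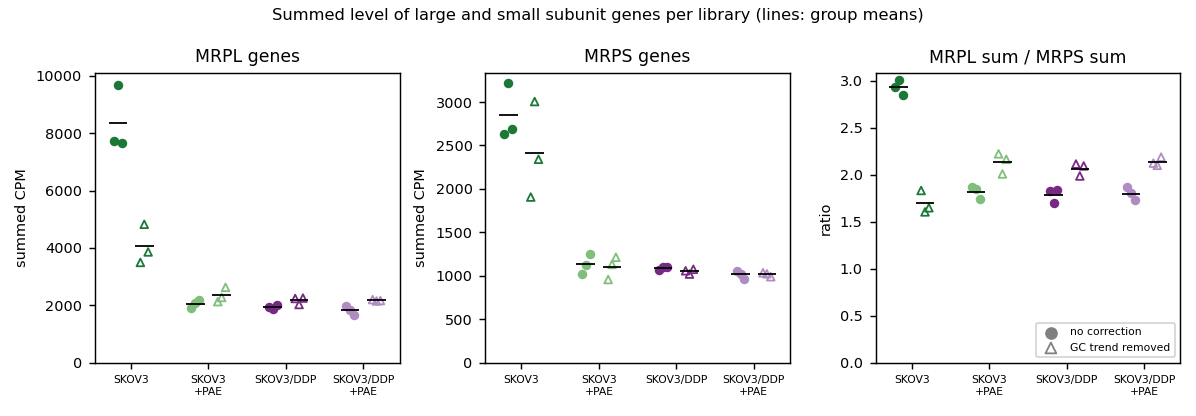
Summed CPM of MRPL genes, of MRPS genes and their ratio in each of the 12 libraries (vertical axes, from 0), by group, without correction (filled circles) and with the GC trend removed (open triangles); lines are group means of 3 libraries. Untreated SKOV3 stands above the other groups in both sums on both scales, while its ratio is above the others at 2.93 without correction and below them at 1.70 with the trend removed.

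For PAE in SKOV3, 21 of the 77 members tested had a higher and 45 a lower level at an adjusted p under 0.05 without correction, where 75.3% of all genes tested were called, 42.6% higher and 32.7% lower. With the GC trend removed there were 8 and 38, where 46.6% of all genes were called, 26.0% higher and 20.6% lower. In both fits with the same sign, 4 rose and 28 fell, 41.6% of the members beside 29.9% of all genes. The fallen members were 36.4% of the family, beside 12.6% of all genes, and the risen ones 5.19%, beside 17.3%. The median log2 fold change of the members was -1.04 without correction and -0.45 with the trend removed, and that of all genes 0.48 and 0.17. When library totals replaced TMM factors, the median of all genes moved to 1.36 without correction. There 29 members were higher and 34 lower, beside 9058 and 3834 of all 17133 genes. In both fits 6 members were higher and 21 lower with library totals, for which the share of all genes was not computed.

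Both subunits fell more often than they rose. Among MRPL genes 2 rose and 19 fell of 49, and among MRPS genes 2 and 9 of the 28 tested. GC content ordered the uncorrected changes within the family, with a Spearman correlation of -0.83 over 77 members that share the same libraries, and of 0.25 with the trend removed. Of the 38 members with a GC content at or above the median, 34 were lower and none higher without correction, and of the 39 below it 21 were higher and 11 lower. A further 7 members, all MRPL genes, were called in both fits with opposite signs.

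**Figure D2:**
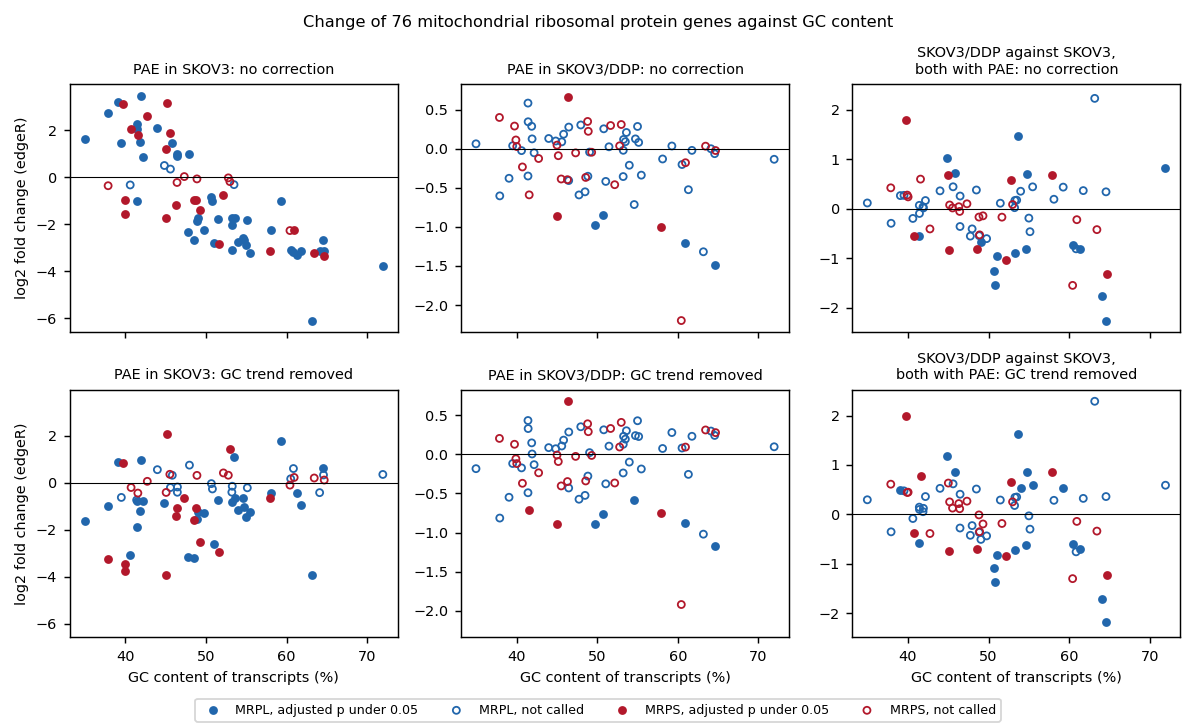
Log2 fold change (vertical axis) of the 76 members tested other than MRPS24 against the GC content of their transcripts in percent (horizontal axis), for PAE in each line and for the lines after PAE, without correction (upper row) and with the GC trend removed (lower row); blue is MRPL, red is MRPS, and filled points have an adjusted p under 0.05. For PAE in SKOV3 the upper panel slopes down with GC content (Spearman -0.83), and the lower one has a smaller correlation of opposite sign (0.25). In SKOV3/DDP the points lie close to 0 in both.

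Of the 4 members that rose, MRPS22, a small-subunit protein whose mutations cause mitochondrial disease, did so most. Its levels were 3.99, 8.18 and 5.17 CPM in untreated SKOV3 and 48.6, 41.0 and 63.5 with PAE. The groups did not overlap, and the log2 fold change was 3.14 ± 0.268 (SE, adjusted p = 6.27e-08) without correction and 2.09 ± 0.236 (1.33e-05) with the trend removed. MRPS22 (chr3:139343994-139357140, plus strand) overlaps COPB2 on the opposite strand, at a mean of 252 CPM, and the strand of counting is not given in the sources used here. MRPS31, whose product is also a small-subunit protein, went from 2.39, 1.62 and 1.10 CPM to 15.98, 12.09 and 15.57, again without overlap. Its log2 fold change was 3.09 without correction and 0.85 (adjusted p = 0.00982) with the trend removed. MRPL39 and MRPL1, proteins of the large subunit, had 3.47 and 3.19 without correction and 0.98 (0.0114) and 0.89 (0.00694) with it removed. A trend on GC content alone, without gene length, left 0.09 for MRPS31 and 0.04 for MRPL1, neither of which passed the test.

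Among the 28 members that fell, MRPS23, MRPS18C and MRPS14 did so most by the corrected fit, beside MRPL23, which had few counts. MRPS23, a small-subunit protein, had 66.8, 126 and 94.6 CPM in untreated SKOV3 and 25.7, 31.2 and 29.2 with PAE. The treated libraries were all below the untreated ones, and the log2 fold change was -1.74 ± 0.230 (adjusted p = 5.40e-06) and -3.92 ± 0.330 (1.27e-06) with the trend removed. MRPS18C, 1 of 3 human relatives of bacterial S18, had 14.28, 38.01 and 23.99 CPM and then 8.948, 6.5 and 9.944, with log2 fold changes of -1.59 and -3.74. For MRPS14, a homologue of bacterial S14, the log2 fold changes were -0.97 and -3.45, but its untreated libraries (30.7, 50.9 and 55.3 CPM) met the treated ones (18.7, 20.2 and 30.7) before correction. With library totals in place of TMM factors, MRPS14 at -0.09 and MRPS18C at -0.70 did not pass the test.

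MRPS11, a homologue of bacterial S11 on the platform of the small subunit, fell by nearly the same amount on both scales. Its levels were 356, 491 and 405 CPM without PAE and 46.3, 47.4 and 81.5 with it, so that every treated library was far below every untreated one. The log2 fold change was -2.84 ± 0.255 (adjusted p = 1.00e-07) and -2.96 ± 0.281 (3.33e-06). MRPL17, a homologue of bacterial L17 near the exit tunnel, had 199, 348 and 262 CPM and 60.0, 55.0 and 43.2 with PAE, for -2.35 and -3.14. MRPL57 had -2.66 and -3.20.

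The GC content that matters to a gene is not known, since it depends on which transcripts the reads came from. The correction was therefore repeated with the GC content of the principal transcript and of the coding sequence, both chosen after the data had been seen. Called with the same sign in the uncorrected fit and under all 3 GC measures were 4 members that rose (MRPS22, MRPL39, MRPL1 and MRPS31) and 20 that fell. The share of all genes that meets this stricter rule was not computed. Counts under it, here and in the other comparisons, describe the members only. MRPS23 stayed between -4.14 and -3.27 and MRPS18C between -4.25 and -3.71 under the 3 measures. MRPL57 moved from -3.20 to -0.31 with the GC content of its coding sequence and was then not called, and MRPL17 moved from -3.14 to -0.91. MRPS11 had -3.40 with its principal transcript and -1.81 with its coding sequence.

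**Figure D3:**
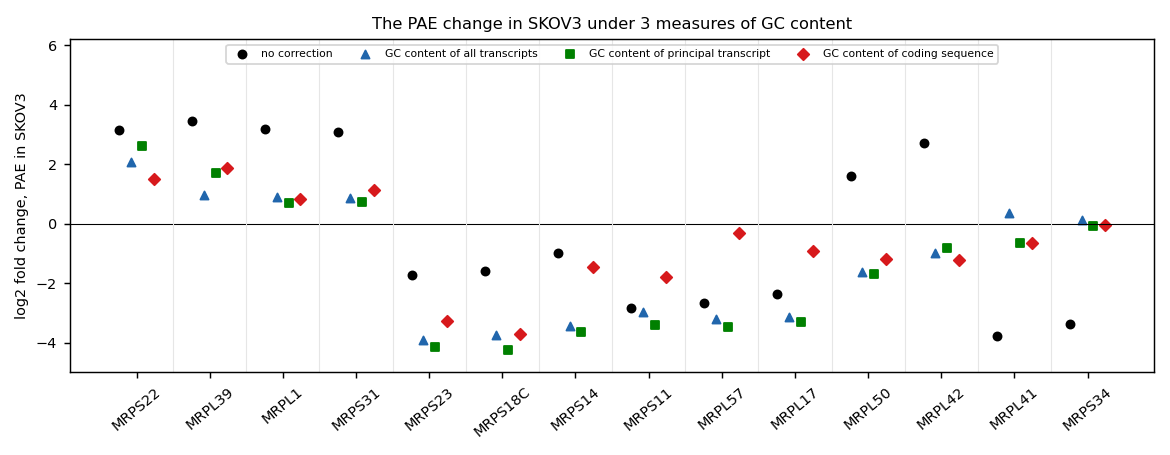
Log2 fold change with PAE in SKOV3 (vertical axis) of 14 members (horizontal axis) in the uncorrected fit (black circles) and with the GC trend removed by the GC content of all transcripts (blue triangles), of the principal transcript (green squares) and of the coding sequence (red diamonds). MRPS22 stays above 0 and MRPS23 and MRPS18C below it throughout, whereas MRPL50 and MRPL42 change sign and MRPL41 and MRPS34 lie nearer to 0 with each correction.

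At the ends of the GC range the call itself turned on the correction. MRPL41, at 72.0% GC, had 592, 859 and 491 CPM in untreated SKOV3 and 34.6, 50.1 and 58.0 with PAE, a log2 fold change of -3.77 ± 0.304 (adjusted p = 4.02e-08) that became 0.35 (0.318). MRPS34, at 64.7%, had -3.36 and then 0.11, and MRPL12, at 64.6%, had -3.16 and then 0.33. At the other end, MRPL50, at 35.0%, had 1.60 and then -1.63, and MRPL42 2.71 and then -0.999. MRPS36, a protein now placed in the oxoglutarate dehydrogenase complex rather than the ribosome, had -0.37 (adjusted p = 0.289) and then -3.24. No direction is given for these 6 members.

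Few members changed with PAE in SKOV3/DDP. Without correction 1 was higher and 6 were lower, where 26.4% of all genes were called, 11.8% higher and 14.7% lower. With the trend removed there were 1 and 8, where 31.8% were called, 15.4% and 16.4% by direction. In both fits 1 rose and 6 fell, 9.09% of the members beside 25.2% of all genes (11.3% higher, 13.9% lower), and the median log2 fold change of the family was -0.02 without correction and 0.00 with the trend removed. Of the MRPL genes 4 fell and none rose, and of the MRPS genes 2 fell and 1 rose. The MRPL sums overlapped, with 1871 to 2018 CPM before and 1663 to 1977 with PAE. The MRPS sums did not, with 1069 to 1103 CPM before and 962 to 1059 with PAE, but they overlapped with the GC trend removed (1019 to 1074 and 988 to 1034) and as shares of raw counts (0.107% to 0.120% and 0.110% to 0.127%). DESeq2 called the same numbers, 1 higher and 6 lower, beside 2400 and 2747 of all 17133 genes without correction.

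MRPL12, a stalk protein that also binds the mitochondrial RNA polymerase (chr17:81703367-81707517, plus strand), fell most. It had 37.8, 30.1 and 35.0 CPM in untreated SKOV3/DDP and 14.18, 13.02 and 9.627 with PAE. No treated library reached the lowest untreated one, and the log2 fold change was -1.48 ± 0.234 (edgeR, adjusted p = 0.000572) without correction and -1.17 ± 0.168 (0.000259) with the trend removed. MRPS18A, which sits in the large subunit despite its name (chr6:43671202-43687793, minus strand), went from 33.8, 27.8 and 33.5 CPM to 17.02, 14.05 and 16.5. Its groups did not overlap either, with log2 fold changes of -1.0 ± 0.196 (0.00232) and -0.75 (0.00491). These 2 members kept their call under every alternative that was run, each library left out in turn included. MRPS18A also fell with PAE in SKOV3, which shares no library with this comparison, from 79.8, 99.2 and 81.2 CPM to 8.831, 10.97 and 9.839. There the log2 fold change was -3.13 and, with the trend removed, -0.64 (0.00806).

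The other members that fell were closer to the threshold. MRPS27, a small-subunit protein with RNA-binding repeats (chr5:72219403-72320240, minus strand), had 87.2, 89.9 and 74.1 CPM and then 41.9, 44.5 and 52.1, for -0.86 ± 0.240 (adjusted p = 0.0169). MRPL16, a homologue of bacterial L16 (chr11:59806140-59810778, minus strand), had 40.3, 31.1 and 49.0 CPM and then 22.5, 23.6 and 21.0, for -0.84 ± 0.233 (0.0159). MRPL27, in the central protuberance (chr17:50367867-50373184, minus strand), had 22.4, 15.7 and 26.3 CPM and then 13.2, 10.5 and 8.80, for -0.98 ± 0.289 (0.0219). In each of the 3 the treated libraries were all below the untreated ones. In SKOV3, MRPL27 had -2.27 and, with the trend removed, -1.29 (0.000813), but -0.01 (0.984) and -0.28 (0.300) with the GC content of the principal transcript and of the coding sequence, so no direction is given there. MRPL54 (chr19:3762682-3767565, plus strand) had a log2 fold change of -1.20 ± 0.334 (0.0166) but was not called when the GC content of the principal transcript was used (-0.81).

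MRPS30, also a protein of the large subunit despite its name (chr5:44808947-44815514, plus strand), was the member that rose. Its levels were 36.7, 35.9 and 36.7 CPM without and 56.8, 53.0 and 62.4 with PAE. The 2 groups were well apart, and the log2 fold change was 0.66 ± 0.192 (adjusted p = 0.0211) and 0.68 (0.00792) with the trend removed. In SKOV3 it had -0.23 (0.290) with PAE and -1.08 (0.000194) with the trend removed. None of these 7 members overlaps another gene with a mean of 1 CPM or more. Leaving out 1 library changed the number of members called in both fits to 2 without SKOV3/DDP replicate 1, 3 without SKOV3/DDP replicate 3, and 4 without any 1 of the SKOV3/DDP libraries with PAE. MRPS30 was not called when any 1 of the untreated SKOV3/DDP libraries was left out.

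**Figure D4:**
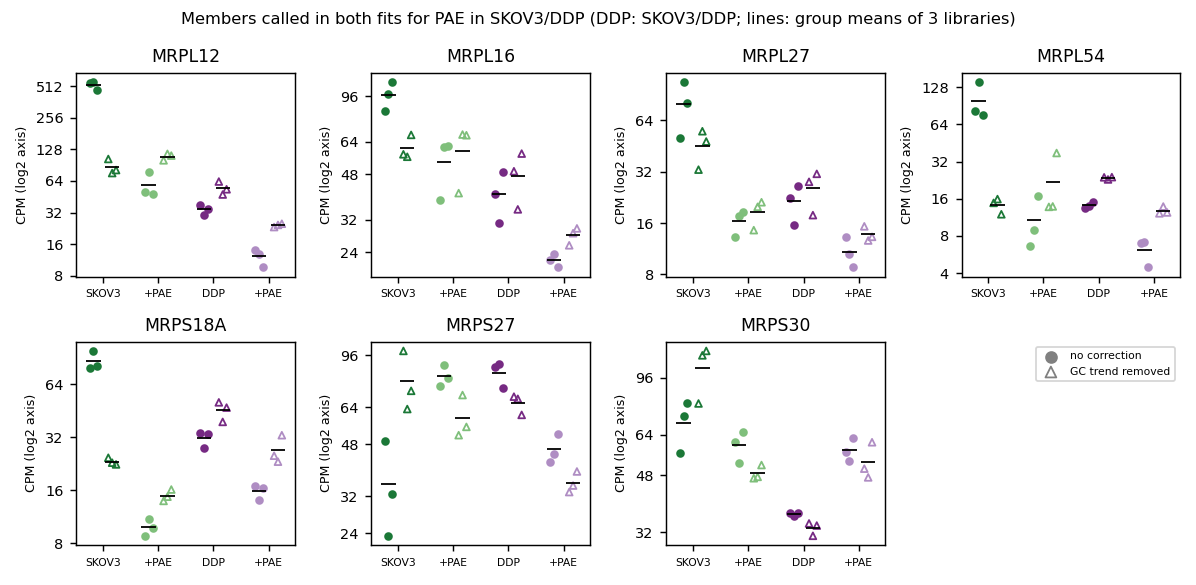
CPM on a log2 axis (vertical) of the 7 members called in both fits for PAE in SKOV3/DDP, in each of the 12 libraries by group (horizontal), without correction (filled circles) and with the GC trend removed (open triangles); lines are means of 3 libraries. In SKOV3/DDP the treated libraries of 6 members lie below the untreated ones and those of MRPS30 above them, on both scales.

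Between the untreated lines, 22 members were higher and 47 lower in SKOV3/DDP without correction, where 81.8% of all genes were called, 45.8% higher and 36.0% lower. The corrected fit gave 17 and 39, where 68.1% were called, 35.3% and 32.7% by direction. In both fits 9 were higher and 33 lower, 54.5% of the members beside 49.5% of all genes (26.6% higher, 22.9% lower). The median log2 fold change of the family was -1.37 without correction and -0.51 with the trend removed, and that of all genes 0.54 and 0.10. This comparison has the untreated SKOV3 libraries in common with that of PAE in SKOV3, so a likeness between the 2 is built in and is not given as a result. Of the MRPL genes 4 were higher and 22 lower, and of the MRPS genes 5 and 11. Called under all 3 GC measures as well as without correction were 6 higher and 23 lower.

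MRPS31 (chr13:40729128-40771207, minus strand) differed most upward, with 41.7, 39.1 and 43.3 CPM in SKOV3/DDP against 2.39, 1.62 and 1.10, a log2 fold change of 4.598 ± 0.283 (edgeR, adjusted p = 2.29e-09) and 2.71 ± 0.237 (2.68e-07) with the trend removed. The lowest SKOV3/DDP library was far above the highest SKOV3 library. MRPS22, MRPL1 and MRPL39 followed at 2.43, 1.94 and 1.10 with the trend removed. Downward, MRPS11 had 42.2, 37.4 and 47.3 CPM in SKOV3/DDP against 356, 491 and 405, for -3.30 and -3.48. MRPL11, a homologue of bacterial L11 at the base of the stalk, had 37.7, 27.8 and 30.0 CPM against 275, 400 and 305, for -3.36 and -3.06. All SKOV3/DDP libraries were below all SKOV3 libraries for both genes. MRPS23 and MRPS18C had -3.27 and -3.17 with the trend removed, but -0.39 and -0.68 with library totals and no correction, which did not pass the test.

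With PAE in both lines the GC trends of the groups were alike, and the Spearman correlation of GC content and the log2 fold change over all genes was -0.00434. Over the members it was -0.20 without correction and -0.23 with the trend removed. Among MRPS genes it was -0.50 and -0.46, and among MRPL genes -0.04 and -0.08. Here 9 members were higher and 17 lower in SKOV3/DDP without correction, where 54.5% of all genes were called, 27.5% higher and 27.1% lower. The corrected fit gave 12 and 17, where 59.2% of all genes were called and 30.2% called higher. In both fits 7 were higher and 17 lower, 31.2% of the members beside 53.8% of all genes (26.7% higher, 27.0% lower). Of the MRPL genes 4 were higher and 11 lower, and of the MRPS genes 3 and 6. Under all 3 GC measures and without correction, 7 stayed higher and 15 lower.

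Toward SKOV3/DDP, MRPS31 again differed most, with 54.2, 52.4 and 45.1 CPM against 15.98, 12.09 and 15.57 in SKOV3 with PAE. Every SKOV3/DDP library was above every SKOV3 library, and the log2 fold change was 1.80 ± 0.236 (edgeR, adjusted p = 1.48e-05) and 1.99 ± 0.205 (1.71e-06) with the trend removed. MRPL10, which anchors the stalk (chr17:47823272-47831541, minus strand), had 82.0, 62.1 and 73.0 CPM against 24.1, 28.3 and 25.4, for 1.48 ± 0.193 (1.38e-05). MRPL44, an RNase III-like protein, had 42.7, 37.2 and 50.9 CPM against 17.02, 21.84 and 24.83, for 1.04 (0.00122). Neither gene's groups overlapped. MRPL48 had 0.73 (0.0179) and was not called without SKOV3 with PAE replicate 1 (0.61), or without SKOV3/DDP with PAE replicate 1 (0.71) or 2 (0.59).

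Lower in SKOV3/DDP were MRPL12, MRPL4, MRPL36 and MRPS34 in the first places. MRPL12 had 14.18, 13.02 and 9.627 CPM against 49.8, 78.0 and 48.5, for -2.26 ± 0.239 (adjusted p = 1.58e-06) and -2.17 with the trend removed. MRPL4, a homologue of bacterial L4 (chr19:10251951-10260055, plus strand), had 49.8, 40.1 and 52.4 CPM against 130, 196 and 156, for -1.76 ± 0.212 (5.91e-06). The SKOV3/DDP libraries were all below those of SKOV3 for both. MRPL36, the homologue of bacterial L36 (chr5:1798385-1801432, minus strand), had -1.53 and -1.36, and MRPS34, a small-subunit protein (chr16:1771895-1773134, minus strand), -1.32 and -1.23. MRPL10 and MRPL12, which form the stalk together, thus differed between the treated lines in opposite directions.

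**Figure D5:**
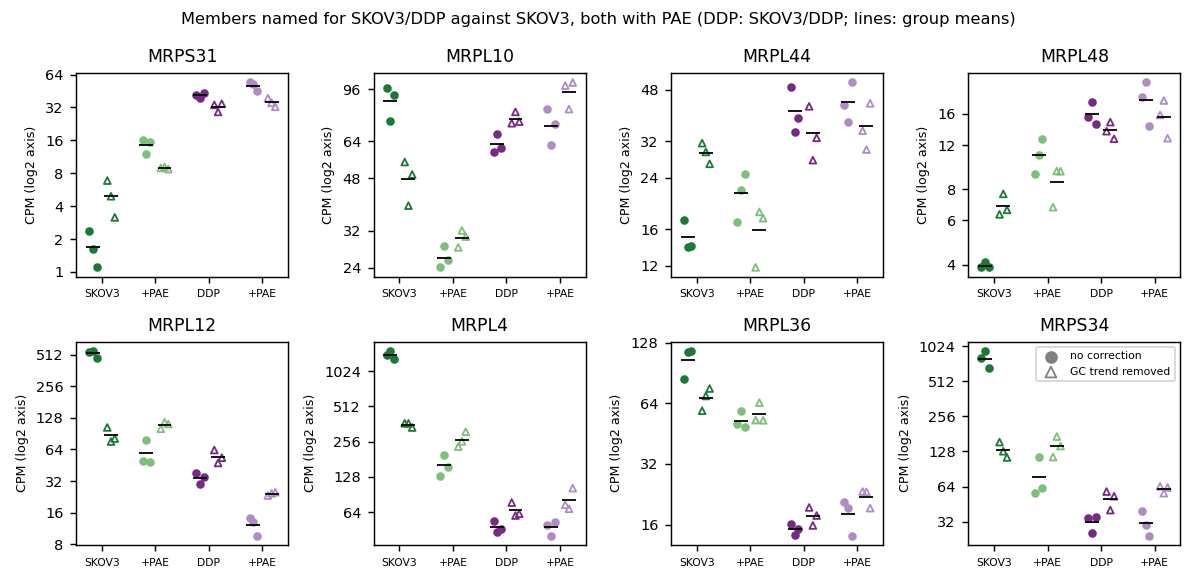
CPM on a log2 axis (vertical) of the 8 members named for SKOV3/DDP against SKOV3 with PAE in both, in each of the 12 libraries by group (horizontal), without correction (filled circles) and with the GC trend removed (open triangles); lines are means of 3 libraries. With PAE, the SKOV3/DDP libraries of MRPS31, MRPL10, MRPL44 and MRPL48 lie above those of SKOV3, and those of MRPL12, MRPL4, MRPL36 and MRPS34 below them.

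The difference of the PAE effect between the lines was tested as an interaction, taken as the log2 fold change in SKOV3/DDP minus that in SKOV3. Without correction 41 members had a positive and 18 a negative difference, where 62.9% of all genes were called, 25.5% positive and 37.4% negative. With library totals in place of TMM factors there were 31 and 22, beside 3088 and 7808 of all 17133 genes. Library totals gave 15 and 4 in both fits, for which the share of all genes was not computed. With TMM factors the corrected fit gave 29 and 9, where 39.4% were called, 21.4% of all genes with a negative sign. In both fits 22 were positive and 3 negative, 32.5% of the members beside 25.9% of all genes (11.3% and 14.6%), with 15 and 1 among the MRPL genes and 7 and 2 among the MRPS genes. Under all 3 GC measures and without correction, 14 stayed positive and 3 negative. The untreated SKOV3 libraries enter this term too. The 4 largest positive differences with the trend removed were those of MRPS23 (3.91), MRPS18C (3.62), MRPS14 (3.39) and MRPS11 (3.29), with adjusted p of 1.89e-05, 4.41e-05, 1.30e-05 and 2.62e-05. In SKOV3/DDP these 4 had log2 fold changes with PAE of -0.01, -0.12, -0.06 and 0.33, none of which passed the test, and in SKOV3 they fell. The negative ones were MRPS22 (-2.18), MRPL1 (-1.44) and MRPS9 (-0.76).

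Grouped by role, the members that fell in SKOV3 were found throughout the ribosome. Of the members with a bacterial homologue, 1 rose and 17 fell of 46, and of those found only in mitochondrial ribosomes 3 rose and 11 fell of the 30 tested. Of all genes tested, 17.3% rose and 12.6% fell there. The stalk had 3 that fell of 5, the exit tunnel 3 of 6 and the central protuberance 2 of 6, and none of these groups had a member that rose in both fits. MRPL27 counts as fallen in the central protuberance by this rule, though no direction is given for it above. In the corrected fit alone, that group had 2 members higher and 2 lower. Of the 28 members of the family that fell in both fits, 20 did so under all 3 GC measures. With MRPS18A and MRPS30 counted in the large subunit, where they sit, 2 rose and 20 fell of 51 large-subunit members, and with MRPS36 left out 2 rose and 8 fell of the 25 small-subunit members tested. In SKOV3/DDP with PAE, 2 of the 5 stalk members fell (MRPL12 and MRPL54), beside 13.9% of all genes. MRPL54 was not called there when the GC content of the principal transcript was used. Of the central protuberance 1 of 6 fell, and of the exit tunnel 0 of 6. Between the lines with PAE, 3 of the 46 with a bacterial homologue were higher and 13 lower, and 4 and 4 of the 30 mitochondria-specific ones, beside 26.7% and 27.0% of all genes.

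Single members with known roles gave the levels of the groups without correction. MRPL3, a homologue of bacterial L3, had means of 18.9, 80.2, 94.3 and 103 CPM in SKOV3, SKOV3 with PAE, SKOV3/DDP and SKOV3/DDP with PAE. MRPL58, a peptidyl-tRNA hydrolase built into the large subunit, had 74.3, 21.3, 22.7 and 23.1 CPM in the same order, and MRPL37, a mitochondria-specific protein, 384, 109, 75.1 and 79.4. MRPL45, which tethers the ribosome to the inner membrane, had 7.838, 15.37, 15.91 and 12.01. In SKOV3/DDP none of these 4 passed the test for PAE. With PAE in SKOV3, neither MRPL3 nor MRPL45 is among the members that rose in both fits. The uncorrected means of untreated SKOV3 carry the GC trend, so the steps from it are not given as changes. After 0.5 CPM was added to each group mean, which holds down the range of genes near 0 such as MRPS24, MRPS2, MRPL21 and MRPS33 had the smallest range of group means with the trend removed, at 0.23, 0.34 and 0.38 on the log2 scale, and MRPS23, MRPS18C and MRPL17 the largest, at 3.89, 3.62 and 3.55. MRPS2, for example, lay between 66.6 and 78.2 CPM in the 4 groups on that scale, though its uncorrected mean was 239 in untreated SKOV3 and 42.8 to 49.8 elsewhere.

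Genes that work with these proteins were counted in the same way, against shares of all genes that were 17.3% higher and 12.6% lower with PAE in SKOV3, 11.3% and 13.9% with PAE in SKOV3/DDP, and 26.7% and 27.0% between the treated lines. Of the 5 subunits with other names (DAP3, PTCD3, CHCHD1, AURKAIP1 and GADD45GIP1), 1 rose and 3 fell with PAE in SKOV3, where PTCD3 had 0.72 (adjusted p = 0.0129) and CHCHD1 -2.74 (1.75e-06) with the trend removed, and 3.19 and -2.19 without correction. None was called with PAE in SKOV3/DDP in both fits. Of 23 assembly factors, 2 rose and 9 fell in SKOV3, with NOA1, a GTPase, at 1.80 and MALSU1, which docks on the large subunit, at -3.79 with the trend removed. Uncorrected, NOA1 had 0.63, with groups that overlapped, and MALSU1 -1.05. In SKOV3/DDP 2 of them fell, TFB1M among them at -0.90 (0.0233), the enzyme that methylates the small rRNA. Of 15 translation factors, 3 rose and 4 fell in SKOV3 and none was called in both fits in SKOV3/DDP. Between the lines with PAE 5 of these were higher in SKOV3/DDP and 1 lower, with the initiation factor MTIF3 at 2.04 (9.29e-06) and the elongation factor TUFM at -0.40 (0.0401) with the trend removed.

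The cytosolic ribosomal proteins, 77 genes tested, were taken as the nearest family. In SKOV3 4 of them rose and 37 fell with PAE in both fits, beside 17.3% and 12.6% of all genes, and in SKOV3/DDP none rose and 1 fell, beside 11.3% and 13.9%. With PAE in both lines, 23 were higher in SKOV3/DDP and 5 lower (26.7% and 27.0% of all genes), where 7 and 17 of the mitochondrial family were. No test compared the families.

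The mitochondrial rRNAs, which these proteins bind, were counted too, as 2 genes of mitochondrial DNA. RNR2, the rRNA of the large subunit, took 0.0381% to 0.0554% of the counts in untreated SKOV3, 0.179% to 0.231% with PAE, 0.927% to 1.41% in SKOV3/DDP and 1.99% to 3.54% in SKOV3/DDP with PAE. The 4 groups did not overlap, and the log2 fold change with PAE was 1.28 (edgeR, adjusted p = 0.000413) in SKOV3 and 1.12 (0.00698) in SKOV3/DDP. RNR1, the rRNA of the small subunit, took 0.0159% to 0.0252%, 0.0168% to 0.0392%, 0.118% to 0.218% and 0.415% to 0.819% in the same order. It had -0.41 (0.294) in SKOV3 and 1.86 (0.00214) in SKOV3/DDP. Without TMM scaling, the log2 ratios of the mean shares with and without PAE were 2.16 for RNR2 and 0.46 for RNR1 in SKOV3, and 1.31 and 2.07 in SKOV3/DDP, so the sign for RNR1 in SKOV3 turned with the scaling. The libraries were made from RNA captured on poly-T beads, so these shares also depend on how much rRNA was captured, and neither gene had a GC value for the corrected fit.

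Reads of some members could have been counted with other genes or in their place. The span of 19 members overlaps a gene whose mean was 1 CPM or more, in 18 cases on the opposite strand, and the strand of counting is not given in the sources used here. Besides MRPS22 these include MRPL36, which overlaps NDUFS6 at 181 CPM, and MRPS18C, which overlaps ABRAXAS1 at 7.36 CPM. MRPL23, with 861 counts in all, overlaps H19 at 67.1 CPM. Pseudogene copies were listed separately, with a mean of 3.6 CPM for MRPL45P2 beside 12.8 for MRPL45, and 7.87 for MRPS31P5 beside 27.0 for MRPS31.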

How the data were processed

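RNA was measured in 12 libraries, 3 in each of 4 groups taken from the labels. The authors deposited raw counts per gene for each library, as whole numbers without normalization, with gene coordinates on GRCh38. The submitters' processing notes name HISAT2 2.0.5, StringTie 1.3.3b, DESeq2 and edgeR, with no role. The counting program, annotation release and strand setting are not given in the sources used here. Totals were 14610008 to 18263479 counts, and intervals and floors cover counting error only.

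Counts of named genes were analysed in R 4.3.3 with edgeR 4.0.16 (filterByExpr, TMM factors, quasi-likelihood test, Benjamini-Hochberg adjustment over all genes tested, threshold 0.05). All 12 libraries entered 1 fit with 4 groups. The second fit had offsets from splines with 5 degrees of freedom on GC content and gene length (GENCODE 29), estimated on genes whose log2 CPM averaged 2 or more. GC values were at hand for 91.5% of the genes tested. Standard errors are those of the fit's log2 fold changes.

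The members and gene lists were chosen with earlier results of these data known. Named are the 4 members of each sign with the largest corrected change per comparison among those called in both fits with at least 10 CPM in the higher group, the 3 at each end of level, GC content and range, and members fixed by role. MRPL11, MRPL16, MRPL17, MRPL27, MRPL57, MRPS18A and MRPS30 are named in some places after their values were seen.

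Alternatives were DESeq2 1.42.0, library totals, the replicate number as a block, other filters (none, or 10 or more counts in all libraries), only the groups compared, splines with 3 degrees of freedom, GC without length, the longest transcript and each library left out in turn. The GC content of the principal transcript, that of the coding sequence, and levels per length without untreated SKOV3 were added after seeing the data. For libraries with the same replicate number, the correlation of their deviations was between -0.319 and 0.184 over 18 pairs, and above 0.1 in 4. These values cannot decide whether the numbers pair the libraries. No 2 libraries of a group agreed within sampling noise.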

Additional observations from a re-analysis of the deposited data

Results flagged for a closer look

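The effect of PAE differed between the lines for 25 members in both fits (22 to 29 with 1 library left out, and 17 when all 3 GC measures were required), by the interaction term (edgeR's quasi-likelihood test, Benjamini-Hochberg adjusted p under 0.05). The differences, as the log2 fold change in SKOV3/DDP minus that in SKOV3 with the GC trend removed, were 3.91 for MRPS23, 3.62 for MRPS18C, 3.39 for MRPS14 and 3.29 for MRPS11. They were -2.18 for MRPS22, -1.44 for MRPL1 and -0.76 for MRPS9. Without correction the same members had 1.78, 1.61, 1.09, 3.13, -3.23, -3.57 and -2.27, so MRPS11 had the value that moved least among the 4 positive ones. Each of these differences contains the untreated SKOV3 libraries, which carried the GC trend, and the part of the trend in them was not tested beyond the corrections given.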

How the results depend on the processing

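The named log2 fold changes were recomputed for 47 pairs of a member and a comparison. With changes to the GC correction, 196 values kept their sign and side of the threshold, 17 lost and 5 gained the call, and 17 changed sign. With the other alternatives 804 kept both, 31 lost and 1 gained the call, and 2 changed sign. Precision is limited by 3 libraries per group and, for MRPL23, MRPS12 and MRPS24, by few counts.

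For PAE in SKOV3, the values that changed sign with the GC trend removed were those of MRPL12 (0.33, with 3 degrees of freedom 0.30, with the principal transcript 0.13), MRPL41 (0.35 and, with 3 degrees of freedom, 0.58), MRPS34 (0.11 and 0.08), MRPL42 (-1.0, without length -0.60, with 3 degrees of freedom -0.99, principal transcript -0.83, coding sequence -1.21) and MRPL50 (-1.63, -1.90, -1.61, -1.70 and -1.18 in that order). Without correction MRPS36 changed sign to 0.52 with library totals and to 0.03 without SKOV3 replicate 2. It passed the test at -0.68 without SKOV3 replicate 1. The cause was not tested.

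The number of members called for PAE in SKOV3/DDP, 7 in the uncorrected fit and 7 in both, became 12 and 11 with only the groups compared, and that in both fits 4 with library totals. Leaving out 1 library gave 3 to 10 and 2 to 9: the first was 3 without SKOV3/DDP replicate 1 or 3 and 4 without SKOV3/DDP with PAE replicate 3, and the second fell to 2, 3 and 4 as given above. For PAE in SKOV3 the ranges were 64 to 67 and 30 to 33, between the untreated lines 64 to 70 and 35 to 43, between the treated lines 19 to 28 and 17 to 26, and for the difference of the effects 57 to 61 and 22 to 29. With the GC trend removed the MRPL sums moved to 4058, 2339, 2170 and 2168 CPM, and the MRPS sums of untreated SKOV3 and SKOV3/DDP to 2418 and 1050.

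With the replicate number as a block, the members called without correction and in both fits were 67 and 31 for PAE in SKOV3, 8 and 7 in SKOV3/DDP, 69 and 40 between the untreated lines, 25 and 22 between the treated lines, and 59 and 24 for the difference of the effects. The labels do not say whether the numbers pair the libraries. Correlations of deviations from means of 3 libraries cannot decide it, so these counts are given for completeness.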
